A study of Mus musculus with 6 samples.

Results

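Immediate early genes are transcribed within minutes of a stimulus, from factors already present in the cell and without new protein synthesis, and their mRNAs are short-lived. In neurons, calcium entry and kinase cascades act on CREB, SRF and related factors at their promoters, and the first proteins made are transcription factors such as Fos, Jun, Egr1 and Npas4, together with effectors such as Arc at the synapse and the phosphatase Dusp1. They are widely used as markers of recent activity, and glial and vascular cells can induce many of them as well.

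The 10 genes described here (Fos, Fosb, Jun, Junb, Egr1, Egr2, Arc, Nr4a1, Dusp1 and Npas4) were taken as named, and every probe set whose only annotated gene symbol was one of them was read, which gave 12 of the 45101 probe sets on the array. All 10 genes had a probe set, and Jun and Egr2 had 2 each. Of these genes, 6 of 10 passed the filter on low values and were tested, among 10581 tested of 18193 genes in all.

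Affymetrix mouse arrays measured RNA from TRAP, a method that pulls tagged ribosomes out of a tissue lysate together with the mRNA they carry. The 3 IP samples hold that ribosome-bound RNA and are labelled as serotonin neurons, and the 3 unbound samples hold what was left in the lysate of the same replicates, a stand-in for whole tissue. Every mouse was of the Slc6a4 JD60 transgenic line on a mixed FVB and c57/bl6j background, with both sexes, aged 6 to 12 weeks, and 5 mice were pooled per sample. The tissue was midbrain and brainstem without cerebellum, and the labels name no stimulus, treatment or time of day. The line uses the Slc6a4 (serotonin transporter) locus to direct the tag, so what the IP holds depends on where that transgene is active.

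The labels of the 2 groups were checked on cell type markers. Slc6a4 itself was 35.5-fold higher in IP, and all 10 tested markers of serotonin neurons were higher. All 10 astrocyte, all 9 oligodendrocyte, all 4 endothelial and all 8 markers of other neuron types that were tested were lower, as were 5 of 6 for microglia, with 1 of 6 higher. Of these, 5 astrocyte, 2 oligodendrocyte, 3 microglial, all 4 endothelial and 2 other neuron markers were under the detection limit (a log2 value of 5) throughout IP, so they passed the filter through unbound RNA and could only be lower. Likewise, 1 serotonin neuron marker and the 1 higher microglial marker were under the limit throughout unbound RNA, so they could only be higher. Of 10 markers listed for endothelial cells, 6 were not tested. The log2 of the astrocyte markers' summed level was 11.64 to 11.86 on the IP arrays, against 14.42 to 14.95 on the unbound arrays. That of the oligodendrocyte markers was 14.06 to 14.62 on the IP arrays, against 16.24 to 16.49 on the unbound arrays, so glial RNA was lower in IP and still measured there. For microglia the sums were 7.52 to 7.54 in IP against 10.59 to 10.78 in unbound RNA, for endothelial cells 5.09 to 5.17 in IP against 8.36 to 8.80 in unbound RNA, and for other neurons 11.38 to 11.98 in IP against 14.05 to 14.46 in unbound RNA. The part of these other cell types in the results below was not tested.

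The sequence just before the start site shows where the factors that read neuronal activity can find their motifs in these genes. RefSeq start sites (GRCm38.p6) were matched by symbol for 8 of the 10 genes, at 12 start sites, and a stretch before 1 start of each of the 8 is shown. In the lines below, capitals mark matches to TGACG or its complement CGTCA (the core of the cAMP response element, bound by CREB), the full element TGACGTCA that contains that core, TGACATCA (the form known from the human JUN promoter, picked after reading the sequences), GCGNGGGCG (bound by EGR proteins), TATAAA, and the CArG box bound by SRF.
Fos, chr12:85473815-85473864, plus strand: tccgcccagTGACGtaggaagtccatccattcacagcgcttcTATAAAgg
Fosb, chr7:19310081-19310110, minus strand: gcgggTGACGcaagcGCGGGGGCGggtccc
Jun, chr4:95052243-95052282, minus strand: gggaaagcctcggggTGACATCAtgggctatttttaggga
Junb, chr8:84978834-84978863, minus strand: tcctgacagTGACGcgagccgcctcctccc
Egr2, chr10:67537797-67537826, plus strand: CCATATATGGgcagcgaCGTCAcgggtatt
Nr4a1, chr15:101266782-101266811, plus strand: gtggCGCCCCCGCccctctccatgCGTCAc
Dusp1, chr17:26508603-26508672, minus strand: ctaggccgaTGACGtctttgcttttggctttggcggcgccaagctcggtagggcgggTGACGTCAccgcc
Npas4, chr19:4990127-4990156, minus strand: gttcgaCGTCAcgggaTGACGtcggaagtc
Searched on both strands over the 250 bases before each start, TGACG was found in 7 of the 8 matched genes, all but Jun, against 17.8% of the 32851 start-site windows in the same table. The full TGACGTCA was found in Dusp1 alone of these 8 (1.55% of all windows) and the CArG box in Egr2 alone (1.47%). GCGNGGGCG was present before Fosb and Nr4a1 (4.7%), TATAAA before Fos (12.4%) and TGACATCA before Jun (2.93%), while the AP-1 site TGANTCA was in none of the 8 (6.75%). A gene was counted if any of its start sites had a match, and Egr2 had several start sites. The percentages are shares of single windows, so the gene counts and the percentages are unlike measures. A match is a run of letters in these windows and not a measured binding site.

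Setting IP against unbound RNA addresses how far the tagged cells' ribosomes carry each mRNA relative to the surrounding tissue. With the biotin control scaling, most of the tested immediate early genes were lower in IP. Arc, Egr1, Nr4a1 and Jun fell, Fos and Dusp1 were abundant in both fractions and did not reach a 2-fold difference, and none of the 6 had a log2 change above 0. A gene was called where limma's adjusted p was under 0.05 and the change at least 2-fold. That made 4 of 6 tested members lower, where 41.1% of all tested genes were called lower and 10.4% higher. With quantile normalisation, and with arrays centred on the median of all probe sets, 2 of 7 tested members were lower and 1 was higher. Of all tested genes, 23.5% were lower and 23.9% higher with quantile normalisation, and 20.2% and 33.6% with that centring. The 1 higher member was Egr2, which passed the filter through IP alone and so could only be higher. With the biotin controls the median log2 change of the 6 members was -1.57, and that of all tested genes was -0.65. All 6 had every IP array below every unbound array, as did 59.1% of all tested genes. Arc is counted among the 4 and among the 6. It was under the detection limit throughout IP, passed the filter through unbound RNA alone and could only be lower. With 6 genes these shares are descriptions, and IP and unbound RNA differ both in cell type and in ribosome binding, so fewer expressing cells, less RNA per cell and less mRNA on ribosomes cannot be told apart.

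Values below are log2 expression after the deposited IP values had been scaled to the biotinylated hybridisation controls (-0.23 added to each), since the authors normalised the groups separately. The detection limit was set at a log2 value of 5. A gene under it on every array of a group passed the filter through the other group alone, so its direction was fixed by the filter and its p is not support for that direction; such genes are given by a bound ("at least"). Levels are not compared between genes, because probe sets differ in their response.

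**Figure D1:**
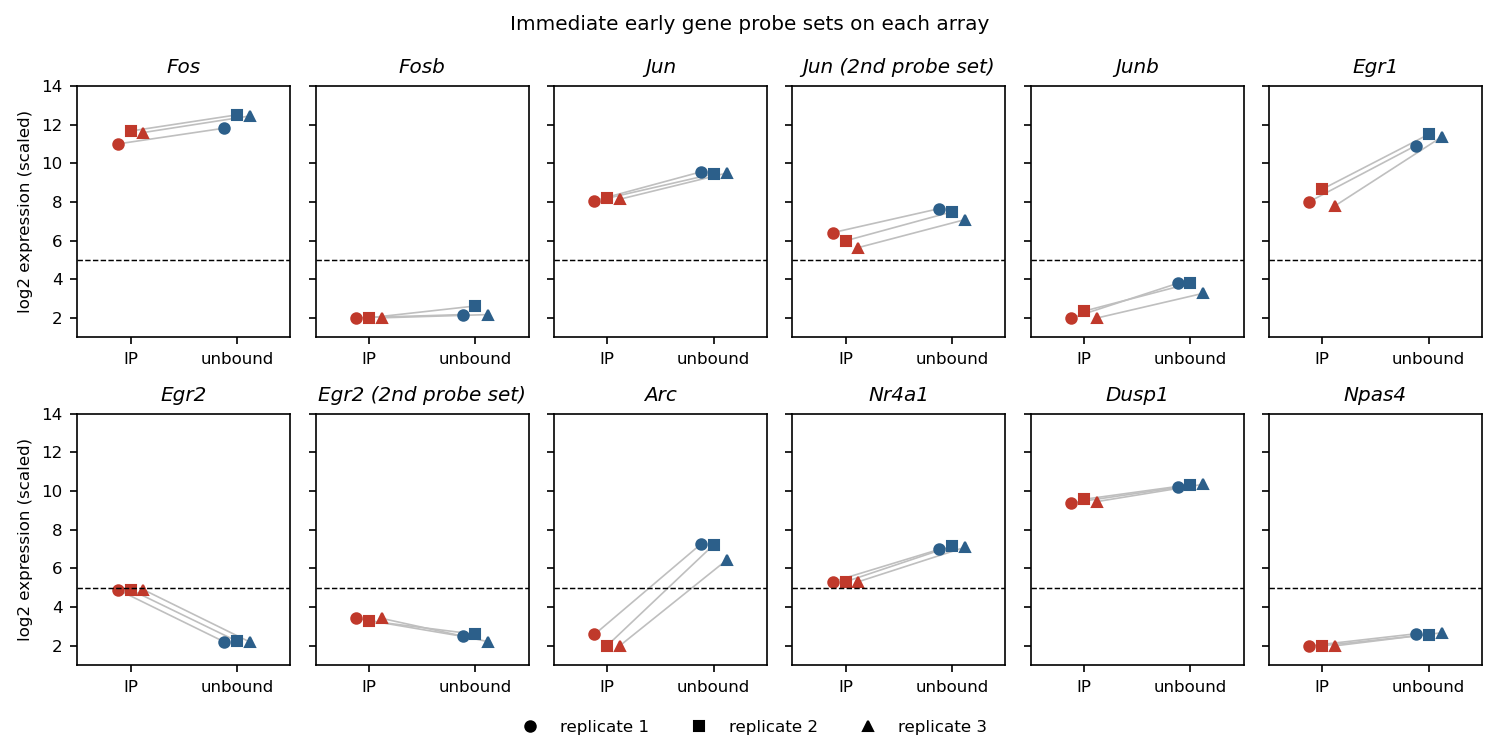
Scaled log2 expression of the 12 immediate early probe sets on each array, with IP (red) left of unbound (blue) in each panel, grey lines joining replicates of the same number and the dashed line marking the detection limit of 5. Fos, Dusp1, Jun, Egr1 and Nr4a1 lay above the limit on all 6 arrays, and Arc in unbound RNA only. Egr2, under the limit in both groups, was the 1 gene with IP above unbound.

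Fos encodes the bZIP protein that pairs with Jun proteins to form AP-1, and it was bright in both fractions. Its log2 expression was 11.00, 11.67 and 11.59 in IP replicates 1 to 3 and 11.82, 12.51 and 12.45 in unbound replicates 1 to 3. Replicate 1 was the lowest of its group in both fractions, and the highest IP array lay just below the lowest unbound array. The mean of Fos was 11.42 ± 0.36 in IP, against 12.26 ± 0.38 in unbound RNA (SD, n = 3 each), and limma put the log2 change at -0.84 ± 0.26 SE (adjusted p = 0.0243). The change was 1.79-fold and was therefore not called, and relative to the median change of all tested genes it was -0.19. Without unbound replicate 1 it passed the 2-fold limit (adjusted p = 0.0165), and without unbound replicate 2 or 3 the adjusted p was 0.0817 or 0.0831.

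The difference within each Fos pair varied far less than the level of Fos itself. IP minus unbound was -0.82 in replicate 1, -0.84 in replicate 2 and -0.86 in replicate 3, although the level spanned 0.67 log2 units over the IP arrays and 0.69 over the unbound arrays. The deviation of Fos from its group mean was -0.42, 0.25 and 0.17 in IP replicates 1 to 3, and -0.44, 0.25 and 0.19 in unbound replicates 1 to 3. The deviations of the 2 fractions thus had the same sign and nearly the same size in every replicate, and the labels tie each unbound sample to the IP replicate of its number.

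Fosb encodes a paralogue of Fos that accumulates in a stable truncated form after repeated stimulation. It was next to the floor of the arrays: 2.00 on all 3 IP arrays, and 2.17, 2.61 and 2.17 on the unbound arrays. No gene-level difference was tested at this signal.

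The Jun proteins are the partners that Fos and Fosb need for DNA binding as AP-1. Jun had log2 expression of 8.07, 8.19 and 8.14 in IP and 9.56, 9.45 and 9.49 in unbound RNA. The groups were separated by more than a log2 unit with little spread inside either, and Jun fell by 1.37 ± 0.08 SE on the log2 scale (2.58-fold, limma, adjusted p = 1.25e-05). Its second probe set, dimmer and more variable, had 6.41, 5.99 and 5.64 in IP and 7.65, 7.49 and 7.08 in unbound RNA, a log2 change of -1.40. Both readings of Jun therefore gave nearly the same difference. The call depended on the scaling, since Jun missed the 2-fold limit after quantile normalisation (-0.74) and with either median scaling (-0.63 and -0.34), with the sign kept.

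Junb, a Jun paralogue with weaker transactivation in many settings, stayed below the detection limit throughout. It had 1.98, 2.35 and 1.99 on the IP arrays and 3.79, 3.79 and 3.27 on the unbound ones. All 3 IP values were below all 3 unbound values, but both groups lie where the arrays give only a bound.

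Egr1 and Egr2 encode zinc finger factors that bind the same GC-rich site. With the biotin scaling Egr1 was above the detection limit in both fractions, and Egr2 was under it in both and was not tested. Egr1, one of the most used activity markers, had log2 expression of 8.02, 8.66 and 7.80 in IP and 10.92, 11.50 and 11.36 in unbound RNA. Every IP array was over 2 log2 units below every unbound array. Egr1 fell by 3.10 ± 0.26 SE on the log2 scale (8.58-fold, limma, adjusted p = 7.94e-05), or -2.45 relative to the median change of all tested genes. Its change stayed under -2 with the scalings tried, from -5.46 with the poly-A controls to -2.07 with the median over all probe sets.

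Egr2, also known as Krox20, is best known for patterning the embryonic hindbrain and for myelination by Schwann cells. It had 4.90 on all 3 IP arrays (the deposited value was the same on each) and 2.19, 2.22 and 2.19 in unbound RNA, next to the floor. The second Egr2 probe set ran the same way, at 3.41, 3.28 and 3.41 in IP and 2.48, 2.58 and 2.20 in unbound RNA. Egr2 was the 1 member whose IP arrays all lay above the unbound arrays, which held for 23.9% of all tested genes. After the biotin scaling it lay just under the limit of 5 in IP and was not tested. Without that scaling, at a deposited value of 5.13, it was tested and called higher (log2 change 2.93, adjusted p = 6.30e-07), but it passed the filter through IP alone, which fixed the direction, and its 3 IP values were identical. Measured against the limit the fold is only at least 1.09. It was also called higher under quantile normalisation (at least 1.61-fold) and under the median scalings (at least 1.59-fold and at least 1.89-fold).

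Nr4a1, also known as Nur77, encodes an orphan nuclear receptor induced by depolarisation and many other signals. It had 5.31 on each IP array, again with the same deposited value on all 3, and 6.98, 7.15 and 7.09 in unbound RNA. IP was thus just above the detection limit and clearly below every unbound array. Nr4a1 fell by 1.77 ± 0.08 SE on the log2 scale (3.41-fold, limma, adjusted p = 4.73e-06). That error was estimated with no spread among the IP arrays, and Nr4a1 missed the 2-fold limit under quantile normalisation (-0.62) and with the median over all probe sets (-0.74).

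Npas4 encodes a bHLH-PAS factor that is induced by calcium entry and largely restricted to neurons. It was next to the floor in IP, at 1.99 on each array, and barely above it in unbound RNA, at 2.61, 2.57 and 2.66. Npas4 was not tested, and no fold is given at this signal.

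Arc encodes a capsid-forming protein that controls AMPA receptor endocytosis at active synapses. It had 2.57, 2.00 and 2.00 in IP, at or near the floor, and 7.26, 7.22 and 6.42 in unbound RNA. Arc was measured in whole-tissue RNA and not above the limit in IP, so its fold is only a bound: at least 3.91-fold lower in IP, and limma fitted -4.77 ± 0.28 SE on the log2 scale (adjusted p = 1.60e-05). Arc passed the filter through its 3 unbound arrays alone, which fixed its direction, and the fitted value is no bound. Arc was called lower under each of the other 6 scalings, from -7.13 to -3.75, with its direction fixed in the same way.

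Dusp1 encodes a phosphatase that removes the activating phosphates from MAP kinases and so shuts off the signal that induced it. It had 9.38, 9.57 and 9.45 in IP and 10.19, 10.33 and 10.35 in unbound RNA. The groups did not overlap, and the difference was well above the SD within either group (0.10 in IP and 0.09 in unbound RNA). By limma, Dusp1 had a log2 change of -0.82 with an SE of 0.09 (1.76-fold, adjusted p = 0.000252), short of 2-fold and close to the median of all tested genes (-0.17 relative to it).

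**Figure D2:**
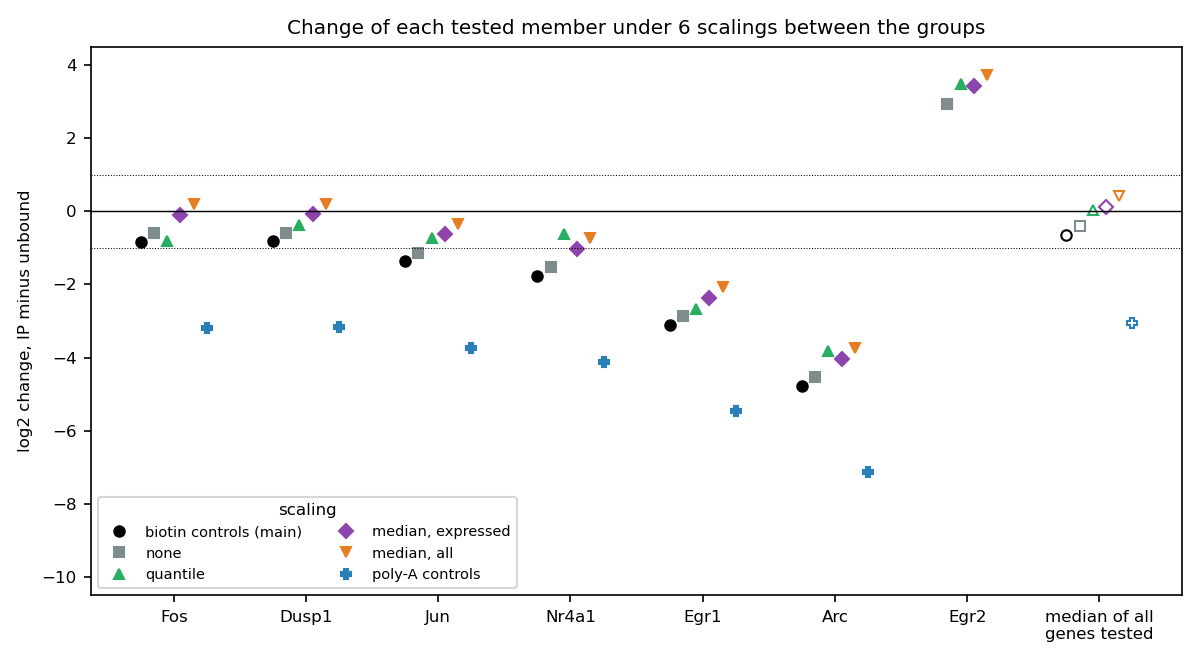
Log2 change (IP minus unbound) of each tested member under 6 scalings between the groups, with open symbols for the median of all tested genes and dotted lines at the 2-fold limits; Egr2 is shown for the 4 scalings in which it was tested. Egr1 and Arc stayed below the lower 2-fold limit under all 6, with Arc's direction fixed by the filter, and Fos and Dusp1 ran up to just above 0.

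Because the authors normalised each group by itself, the zero of these changes depends on the scaling. The median of all tested genes was -0.65 with the biotin controls, -0.41 without scaling, 0.04 after quantile normalisation, 0.12 and 0.42 with arrays centred on the median of expressed or of all probe sets, and -3.06 with the poly-A controls. Fos and Dusp1 had log2 changes of 0.19 and 0.21 when arrays were centred on the median of all probe sets, and of -3.20 and -3.18, both called lower, with the poly-A controls.

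The replicates differed for some members and hardly for others. Besides Fos, replicate 1 was the lowest for Dusp1 in both fractions, with deviations from the group mean of -0.08 in IP and -0.10 in unbound RNA. Egr1 was lowest in IP replicate 3, at -0.36, and in unbound replicate 1, at -0.34, and highest in replicate 2 of either fraction, with deviations of 0.50 (IP) and 0.24 (unbound RNA). Jun deviated by at most 0.07 on any array. Arc in unbound RNA was lowest in replicate 3, at -0.54. No replicate was thus low or high for all members together.

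**Figure D3:**
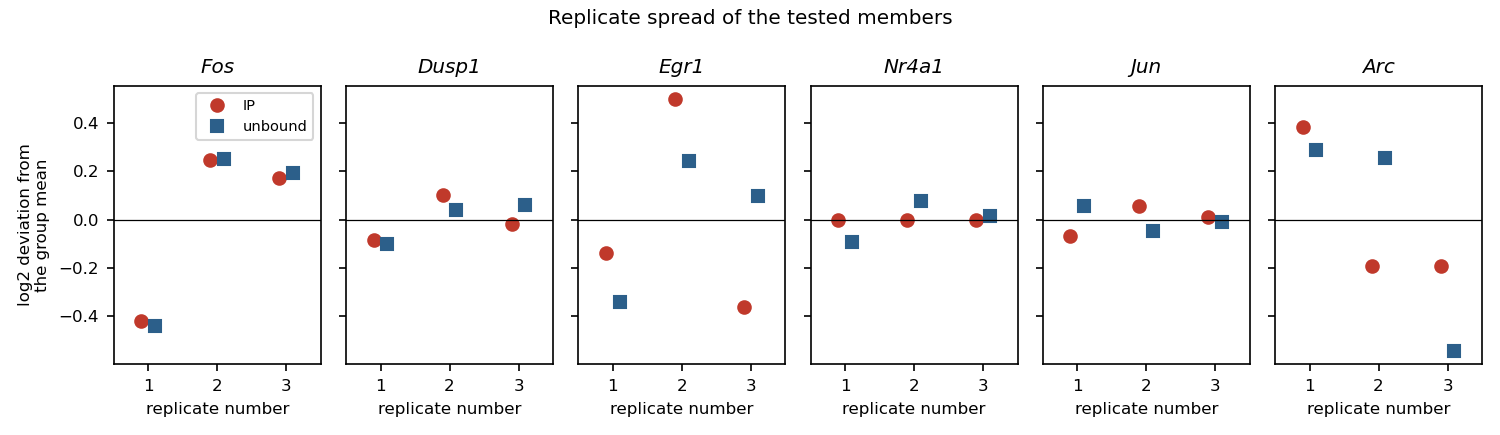
Deviation of each tested member from the mean of its group, in log2 units, for replicates 1 to 3 of IP (red circles) and unbound RNA (blue squares). The IP and unbound points of Fos lie almost on each other in every replicate, with replicate 1 near -0.4, while Jun stays within 0.07 of 0.

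Other transcription factors of the immediate early class were called lower more often than higher with the biotin scaling. That excess was absent with quantile normalisation and with arrays centred on all probe sets. Of 23 listed, 16 were tested, 2 were higher, 9 were lower and 5 were not called, with a median log2 change of -1.29 (-0.65 over all tested genes, of which 41.1% were lower and 10.4% higher). With quantile normalisation 6 of 17 were higher and 5 lower (median 0.12), against 23.9% and 23.5% of all tested genes. With arrays centred on all probe sets 6 of 18 were higher and 6 lower (median -0.02), against 33.6% and 20.2%. Without scaling 3 of 17 were higher and 8 lower, against 14.1% and 35.2%. Centred on expressed probe sets, 5 of 18 were higher and 7 lower, against 25.7% and 25.1%. The poly-A controls gave 0 higher and 15 of 15 lower, against 0.466% and 94.9%. Klf4 and Cebpd were below the detection limit on each IP array, with identical values, which fixed their direction. They were at least 5.04-fold lower (limma, adjusted p = 1.09e-06) and at least 2.07-fold lower (adjusted p = 1.27e-06) in IP. Nr4a2, the Nr4a1 relative that specifies dopamine neurons, fell by 3.32 (9.97-fold, adjusted p = 4.40e-05), and the zinc finger factor Klf6 by 2.52. Klf10, with its direction fixed likewise, was at least 1.71-fold lower (adjusted p = 7.42e-06).

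The relatives of the members did not all move as the members did. The following genes were picked after their values were seen. Jund, a Jun paralogue that is expressed without a stimulus, had 13.15, 13.33 and 13.26 in IP and 12.12, 12.21 and 12.17 in unbound RNA. It rose by 1.08 ± 0.08 SE (limma, adjusted p = 4.53e-05), opposite to Jun, was just short of 2-fold under quantile normalisation (0.97) and was called lower with the poly-A controls (-1.28), where nearly all genes were. Maff, a small Maf bZIP protein, was the other gene called higher, at least 1.15-fold, with an identical value just above the limit on all 3 IP arrays and a mean of 3.15 in unbound RNA (adjusted p = 1.65e-06), where it was under the limit, so the filter fixed its direction too. Among paralogues of the members, Egr3 (log2 change -1.48, adjusted p = 0.0158) and Nr4a3 (log2 change -1.83, adjusted p = 2.80e-05) were called lower. Egr3 lost its call with either median scaling and after quantile normalisation, and Nr4a3 after quantile normalisation and when centred on all probe sets. Fosl2, at -0.99, was just short of the limit.

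Effectors and later-response genes of neuronal activity were mostly called lower with the biotin scaling, with a pair called higher. Of 32 listed, 24 were tested, 2 were higher, 17 were lower and 5 were not called, with a median of -1.63, against 41.1% lower and 10.4% higher of all tested genes. Of the 24, 8 were below the limit on all IP arrays, as were 1404 of all 10581 tested genes. These 8 passed the filter through unbound RNA alone, could only be lower, and are all counted among the 17. With arrays centred on all probe sets 7 were higher and 11 lower (median -0.60). Of all tested genes, 33.6% were then higher and 20.2% lower (median 0.42). The 2 genes called higher, Pcsk1 and Scg2, act in the regulated secretory pathway: Pcsk1, a prohormone convertase, had 9.63, 9.02 and 9.24 in IP and 5.10, 5.13 and 5.06 in unbound RNA, a rise of 4.20 (adjusted p = 2.77e-06). Scg2, a granin of dense-core vesicles, was added after its value was seen. It rose by 2.23 (adjusted p = 3.87e-05) and was not called with the poly-A controls (-0.13). Both are also constitutive products of peptide-secreting neurons.

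Among the lower effectors, Dusp6, a MAP kinase phosphatase like Dusp1, was at least 6.33-fold lower (adjusted p = 6.58e-06), and Inhba, which encodes an activin subunit, at least 2.18-fold (adjusted p = 2.06e-06). Zfp36, whose protein destabilises AU-rich mRNAs, was at least 1.27-fold lower (adjusted p = 1.86e-06). On each IP array all 3 were below the detection limit, with identical values, so the filter fixed their direction. Rgs4, a regulator of G protein signalling, averaged 7.89 in IP and 10.99 in unbound RNA and fell 8.59-fold (adjusted p = 2.32e-05). The growth factor gene Bdnf (at least 2.82-fold, adjusted p = 0.000312, direction fixed by the filter) and the scaffold gene Homer1 (-1.28), named after their values were seen, were called lower too. Both missed the 2-fold limit after quantile normalisation, and Homer1 also with either median scaling. Homer1 had 8.58 on each IP array, so its error was estimated with no spread there.

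The kinases, coactivators and factors that act upstream of immediate early promoters were read in 28 tested genes of 38 listed. Of these, 1 was higher, 18 were lower and 9 were not called, with a median of -1.74, against 41.1% lower and 10.4% higher of all tested genes. Among the 28, 1 was under the limit on all IP arrays and could only be lower. With arrays centred on all probe sets 4 were higher and 9 lower (median -0.71), where 33.6% of all tested genes were higher and 20.2% lower. Camk4, the kinase that phosphorylates CREB in the nucleus, fell by 3.11 to 5.98 in IP, against 9.09 in unbound RNA (8.63-fold, adjusted p = 2.15e-05). Creb1 itself fell by 2.62 to 8.02 in IP, against 10.63 in unbound RNA (6.14-fold, adjusted p = 1.86e-05). The coactivator genes Ep300 (-2.78) and Crebbp (5.66-fold) and the kinase gene Rps6ka5 (-2.67), whose product acts on CREB and histone H3, were lower as well. These 5 were called lower under every scaling tried.

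Map2k2, a kinase of the ERK cascade, was the 1 upstream gene called higher, at 10.62, 10.74 and 10.62 in IP and 8.91, 9.25 and 9.25 in unbound RNA (log2 change 1.52, adjusted p = 5.44e-05), and it was not called with the poly-A controls (-0.84). Its relative Map2k1 had a log2 change of 0.50 and was not called. Srf, whose product binds the CArG box shown above for Egr2, had a log2 change of -0.84 and was not called either, with a change of 0.19 when arrays were centred on all probe sets. Map2k1 was called higher with either median scaling. With the poly-A controls, Map2k1 (-1.86) and Srf (-3.20) were called lower, as nearly all genes were. Srf, Map2k1 and Map2k2 were named after their values were seen.

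**Figure D4:**
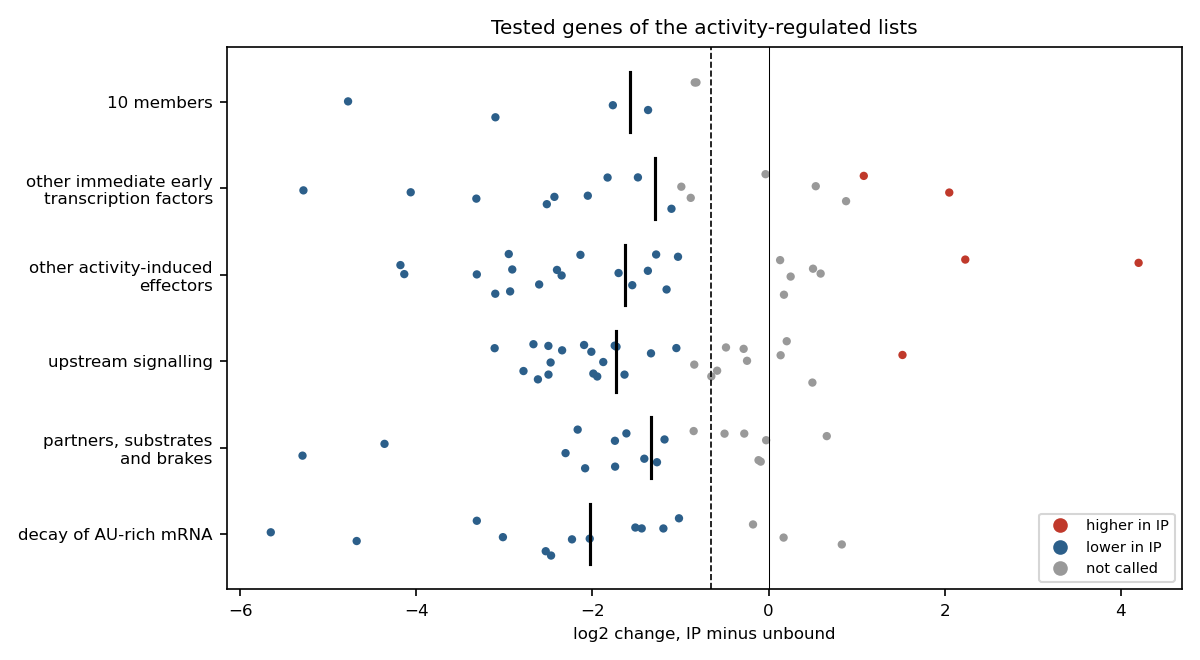
Log2 change (IP minus unbound) of the tested genes of each list, coloured by call, with a black bar at each list's median, a dashed line at the median of all tested genes (-0.65) and vertical scatter only to separate points. With this biotin scaling the median of every list shown lies left of the dashed line, and red points, the genes called higher, number 2 among the other transcription factors, 2 among the effectors and 1 among the upstream genes.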

How the data were processed

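The deposited log2 values were made by the authors with GCRMA (version not given in the sources used here), which was run on 1 group's replicates at a time, per the series' design text, from 20 ng of total RNA per sample, per the labels. The log2 scale was read from the values. As the design text recommends, IP was scaled to unbound RNA by 18 biotin control probe sets. The platform annotation gave 34945 probe sets a single symbol, and a gene was read by its brightest probe set. Genes with at least 3 of 6 arrays at log2 5 or more were tested with limma 3.58.1 (R 4.3.3), two-sided, Benjamini-Hochberg over 10581 genes. The method was tested on simulated data. Bounds set each dim array at no less than 5. Deviations of same-numbered samples correlated at 0.27, 0.16 and 0.10, and the labels tie each unbound sample to its IP replicate. The main fit had group as its only term, so its standard errors and p values are unpaired. The numbers were taken as pairs in the replicate descriptions and in the alternatives with a replicate block or a pair left out. Members and lists were chosen with earlier results of these data known. The 22 alternatives, given in the closing section, changed the scaling, the filter, the reading of probe sets, the variance trend, the replicate block and the arrays used. Named list genes were up to 5 called per list with the largest change. The number of arrays limits precision. Listed genes without a single-symbol probe set were not analysed here.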

Additional observations from a re-analysis of the deposited data

How the results depend on the processing

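The scaling between the separately normalised groups decided most. Genes called higher and lower numbered 1104 and 4354 with the biotin controls (79.8% of calls lower), 2514 and 2473 after quantile normalisation (49.6%), 2777 and 2716 with expressed-probe-set centring (49.4%), 3671 and 2200 with all-probe-set centring (37.5%), and 48 and 9768 with the poly-A controls (99.5%). With every probe set by itself, 1748 and 7233 of 16835 probe sets were called. Without scaling 71.4% of calls were lower. Of the members, 0 were higher and 4 lower. Egr2 made it 1 higher without scaling, under quantile normalisation, under both median scalings and with no filter. The members called lower were 2 under quantile normalisation, with all-probe-set centring and with the filter at log2 7, which leaves fewer genes tested. Fos (0.19) and Dusp1 (0.21) changed sign with all-probe-set centring. Of the 100 tested genes of the other lists, 5 were higher and 66 lower. The higher ones numbered 22, 14, 13 and 1, with all-probe-set centring, expressed-probe-set centring, quantile normalisation and the poly-A controls, and the lower ones 38 with all-probe-set centring, 42 under quantile normalisation and 42 with the mean of probe sets. With every probe set by itself, 108 probe sets of those lists were lower. Other causes were not tested. Leaving out 1 array or 1 pair gave 778 to 1173 genes higher, 2783 to 4606 lower, 3 to 4 members lower, and 43 to 66 lower and 4 to 6 higher on the other lists. Without unbound replicate 1 or without the pair of replicate 2, 2783 and 2839 genes were lower, and leaving out that pair gave the 43 on the other lists. The pairs left out together were added after seeing the data. With an unbound array left out, alone or in its pair, the filter still needed 3 arrays. No gene at the limit in unbound RNA alone, Arc among them, could then pass. Genes tested fell from 10581 to between 8889 and 9231, and members tested from 6 to 5, so those lower counts are over fewer genes. With the replicate pairs as a block, 1108 genes were higher and 4360 lower, no member's call changed, and the SE of Fos was 0.09 (adjusted p = 0.000899). Scaling each array by its own biotin controls gave 1101 higher and 4349 lower, and the intensity trend 1104 and 4354. No member's call changed in either. Leaving out genes with identical values throughout a group gave 959 higher and 3100 lower. Nr4a1 was then not tested, and 3 of 5 tested members were lower. Egr1 was called lower under all 22 alternatives. Arc was called lower under all 15 that tested it, but wherever the filter was applied it fixed Arc's direction. Signal limits Fosb, Junb, Npas4 and Egr2, which lie under the detection limit.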

Other observations

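Genes whose products pair with, are dephosphorylated by or restrain the immediate early proteins were lower or not called. Of 23 listed, 18 were tested, 0 were higher (1 at an unadjusted p under 0.05) and 11 were lower (limma), with a median log2 change of -1.34, against -0.65 for all tested genes, of which 41.1% were lower. Nfe2l2, Arnt and Nab2 were below the limit on all IP arrays and passed the filter through unbound RNA alone, which fixed their direction. Nfe2l2, a bZIP factor of the oxidative stress response, was at least 11.2-fold lower in IP (adjusted p = 1.65e-06). Arnt and Arnt2 encode the partners with which Npas4-type factors bind DNA: Arnt was at least 3.00-fold lower (adjusted p = 4.19e-07), and Arnt2 fell by 2.08 to 8.17 in IP, against 10.26 in unbound RNA. Nab2, a corepressor of EGR proteins that is itself induced by them, was at least 1.38-fold lower (adjusted p = 2.43e-05), and Hdac4 fell by 2.17. Mapk10, the neuronal JNK gene that was named after its value was seen, was bright in both fractions, at 14.28 in IP and 14.40 in unbound RNA, and was not called. Centred on all probe sets, 3 of 19 tested genes of this list were higher and 5 lower. Of all tested genes, 33.6% were then higher and 20.2% lower.

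Immediate early mRNAs carry AU-rich elements that recruit decay factors, and 12 of 15 tested genes of that machinery were lower, with 0 higher (limma, 1 at an unadjusted p under 0.05) and a median of -2.03, against 41.1% of all tested genes. With arrays centred on all probe sets 2 were higher and 8 of 15 lower, and with quantile normalisation 0 were higher and 7 of 13 lower. Of all tested genes, 33.6% were higher and 20.2% lower with that centring, and 23.9% and 23.5% with quantile normalisation. The 3 listed ZFP36 family genes were lower: Zfp36l2 at least 12.6-fold (adjusted p = 4.55e-07), Zfp36l1 by 4.68 on the log2 scale to 6.09 in IP, against 10.76 in unbound RNA, and Zfp36, which is also on the effector list, at least 1.27-fold. For Zfp36l2, Zfp36 and Pan2, under the limit on every IP array, the filter fixed the direction. Pan2, a subunit of a deadenylase, was at least 1.21-fold lower (adjusted p = 9.33e-07) and the decapping gene Dcp1a fell by 2.53. Cnot7, named after its value was seen, had 12.57 on each IP array and a mean of 11.74 in unbound RNA. It was short of 2-fold, was called higher when unscaled or median-scaled, and was called lower with the poly-A controls (-1.53), where nearly all genes were.

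The genes whose deviations from the group means ran closest to the mean of the 6 tested members were Cdh22, Rfx1, Zc3h4, D2hgdh and Top3b, with likeness of 0.991 to 0.997 (Pearson, over 6 arrays), a description chosen from 10581 genes. Of these, Cdh22 was called higher and Rfx1 lower in IP, and the other 3 were not called.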
